A study of Homo sapiens with 6 samples.

Results

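Autophagy receptors and core autophagy genes were followed in the RNA sequencing of MM1.S cells, an established human multiple myeloma line that grows as antibody-producing plasma cells. The 10 genes were taken by symbol: the receptors SQSTM1, NBR1 and OPTN, the ATG8-family genes MAP1LC3B, GABARAPL1 and GABARAPL2, and the machinery genes ULK1, WIPI1, ATG5 and ATG12. All 10 were among the 11048 gene symbols listed, so no member was lost to the filter on low values. There were 3 groups of 2 libraries, all from the same line after 6 h: DMSO, the vehicle control, 3 µM CCF642, an inhibitor of the protein disulfide isomerase PDIA1, and 3 µM CCF642-34, an analogue of CCF642. The comparisons ask whether either compound moved these genes from their level in DMSO, and whether the analogue did so to another extent than CCF642. Each group is 1 dose at 1 time in 1 cell line, and the labels do not say whether the replicates came from separate cultures, so p-values measure only the spread between these libraries, which may be technical.

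Autophagy delivers cytoplasmic cargo to the lysosome in a double-membrane vesicle, the autophagosome. The ULK1 kinase complex starts the process, a lipid kinase marks the membrane with a phosphoinositide that WIPI proteins bind, and the ATG12-ATG5 conjugate helps to attach ATG8-family proteins to the lipid of the growing membrane. Receptors such as SQSTM1 hold ubiquitin-tagged cargo on one side and ATG8 proteins on the other. In plasma cells, autophagy is known to limit the endoplasmic reticulum and to clear protein aggregates. Messenger RNA levels do not measure how much cargo passes through the pathway.

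Sequence before the RefSeq starts was examined because most members rose with both compounds. RefSeq (GRCh38.p14) gave at least 1 window for each of the 10 genes, and the 250 bases before the start were searched on both strands for TGACGTCA, a cyclic AMP response element, for TGACNNNGC, a core of the antioxidant response element, for TGATGNAA, an element read by C/EBP and ATF factors, and for the E-box CACGTG. There were 2 matches in all members: TGACGTCA at GABARAPL1, 30 to 23 bases before the start, and TGACNNNGC at MAP1LC3B, 46 to 38 bases before it. GENCODE 29, which places some starts farther upstream, has exons over 199 of the 250 bases of the GABARAPL1 window and over all 250 of the MAP1LC3B window, and both matches lie in such exons. Of all 35116 windows of this length, 1.65% held TGACGTCA, 10.9% TGACNNNGC, 3.14% TGATGNAA and 6.34% CACGTG. SQSTM1, NBR1, OPTN and ATG5 had more than 1 window, and all were searched. By gene, with a match in any window, these shares were 2.03%, 13.2%, 3.89% and 7.73% of 27305 genes. The stretches around both matches are shown with the match in capitals, beside the upstream sequence of GABARAPL2, the ATG8-family member that was not called, and of WIPI1, which was called but held no match. Only bases outside GENCODE 29 exons are shown for the latter pair.
GABARAPL1, chr12:10212836-10212865, plus strand: ggctcgcggggTGACGTCAcagcccgacgc
MAP1LC3B, chr16:87392280-87392309, plus strand: gcgagtcaccTGACCAGGCtgcgggctgag
GABARAPL2, chr16:75566129-75566350, plus strand: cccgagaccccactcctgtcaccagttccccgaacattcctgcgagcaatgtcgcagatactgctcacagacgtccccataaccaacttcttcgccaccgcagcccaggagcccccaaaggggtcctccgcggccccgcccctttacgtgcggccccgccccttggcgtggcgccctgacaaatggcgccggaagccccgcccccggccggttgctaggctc
WIPI1, chr17:68457514-68457746, minus strand: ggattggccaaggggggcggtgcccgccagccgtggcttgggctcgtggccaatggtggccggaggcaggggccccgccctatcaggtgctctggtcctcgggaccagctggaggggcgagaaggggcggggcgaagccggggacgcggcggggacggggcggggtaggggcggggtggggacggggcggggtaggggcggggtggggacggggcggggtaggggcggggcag
A match describes letters only. The windows of SQSTM1, NBR1, OPTN, ULK1, ATG5 and ATG12 held none of the 4 motifs, which says nothing of the factors that may act elsewhere at these genes.

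The library totals behind the CPM lay between 20567313 and 28459677 reads, of which the listed genes held 99.9%. CPM are the counts of a gene scaled to a common library total. The markers of the myeloma line were present, with 8 of 8 plasma cell or myeloma genes listed. Their summed level was 5005 to 5063 CPM in DMSO, 4754 to 4794 with CCF642 and 5025 to 5077 with CCF642-34, although single markers moved in opposite directions. SDC1, the surface proteoglycan that defines plasma cells, fell to 0.314-fold with CCF642 and 0.460-fold with CCF642-34, and TNFRSF17 to 0.480-fold and 0.569-fold, while IRF4, a factor that myeloma cells need, rose 1.86-fold and 2.15-fold. Of 6 markers of other blood cells, 2 were listed, CD3E and HBB, while CD3D, CD14, MS4A1 and LYZ were not among the listed genes. Their sums were 5.05 to 5.35 CPM in DMSO and 7.27 to 7.52 with CCF642-34. With CCF642 the sums lay between these ranges, at most 6.17 CPM. HBB rose 1.55-fold with CCF642-34, from 3.13 and 2.48 CPM in DMSO to 4.39 and 4.86. It was not called with CCF642, and CD3E was not called with either compound. The 3 epithelial or stromal markers EPCAM, KRT8 and COL1A1 summed to 3.92 to 4.09 CPM in DMSO, 10.5 to 11.99 with CCF642 and 4.81 to 5.22 with CCF642-34. These markers too went opposite ways with both compounds. With CCF642, COL1A1 rose 5.03-fold, from 1.09 and 1.495 CPM to 8.99 and 10.5, KRT8 fell to 0.495-fold and EPCAM was not called. With CCF642-34, COL1A1 rose 1.87-fold, KRT8 fell to 0.556-fold and EPCAM was again not called. The part of these marker changes in the results was not tested. TMM factors, which rescale libraries for composition, were 1.05 in both DMSO libraries, 0.962 and 0.957 with CCF642, and 0.987 and 0.992 with CCF642-34. For the members, fold changes against DMSO on the scaled values are therefore larger than the ratios of the deposited CPM, as for SQSTM1 with CCF642, at 5.31 beside a CPM ratio of 4.84.

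Both compounds raised most of the 10 genes, and SQSTM1 and GABARAPL1 the most. With CCF642, 9 of 10 rose and GABARAPL2 was not called. With CCF642-34, 8 of 10 rose and GABARAPL2 and ULK1 were not called. In limma 0 members fell against DMSO with either compound, also at an unadjusted p under 0.05, and 0 fell at the adjusted threshold with edgeR's quasi-likelihood test, DESeq2 or limma-voom. The test was limma, applied to TMM-scaled CPM after adding a pseudocount of 1 and taking log2, with p-values adjusted by Benjamini-Hochberg over all 11048 genes and a threshold of 0.05. At this threshold, 31.8% of all genes were called higher and 31.3% lower with CCF642, and 29.7% higher and 27.9% lower with CCF642-34. The median log2 fold change of the members was 0.48 with CCF642 and 0.44 with CCF642-34, beside -0.0068 and 0.0062 over all genes. The members were chosen with earlier results of these data known, so setting them against all genes does not test them as a set. At least 2-fold higher with an unadjusted p under 0.05 were 4 members with CCF642, SQSTM1, GABARAPL1, MAP1LC3B and WIPI1, against 4.5% of all genes, and 3 with CCF642-34, the same genes without WIPI1, against 2.59%. Scaled to library size alone, without TMM, 2 members passed 2-fold with CCF642, since MAP1LC3B and WIPI1 then stood at log2 values of 0.95 and 0.89. The libraries of compound and DMSO did not overlap on the TMM scale for 9 members with CCF642 and 8 with CCF642-34, where 79.4% and 78.9% of all genes did not overlap, so such separation is common in these data. An exact permutation test of 2 libraries against 2 cannot give a p below 0.333 and was not used.

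**Figure D1:**
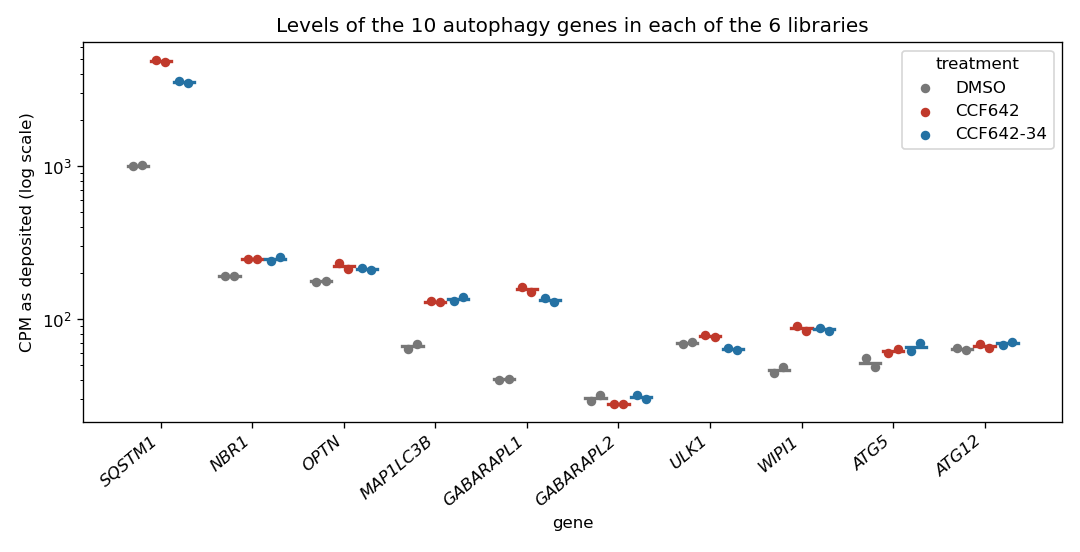
Deposited CPM of the 10 genes (log axis) in each of the 6 libraries, with 1 point per library and a bar at the mean of each group of 2. SQSTM1 and GABARAPL1 stand well above their DMSO libraries with both compounds, while GABARAPL2 and ATG12 stay close to theirs; heights of different genes are not comparable because CPM do not account for gene length.

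SQSTM1, the receptor that gathers ubiquitin-tagged proteins into bodies and also binds KEAP1, stood at 997 and 1011 CPM in DMSO, 4948 and 4777 CPM with CCF642, and 3580 and 3465 CPM with CCF642-34. The 3 groups did not overlap, with DMSO lowest and CCF642 highest. In shares, SQSTM1 took 0.0997% and 0.101% of the library total in DMSO, 0.495% and 0.478% with CCF642, and 0.358% and 0.347% with CCF642-34. SQSTM1 rose 5.31-fold with CCF642 (95% confidence interval 5.07 to 5.57, log2 fold change 2.41 ± 0.034 SE, adjusted p = 1.28e-45) and 3.73-fold with CCF642-34 (3.56 to 3.91, log2 1.90 ± 0.034 SE, adjusted p = 4.75e-41). By size of increase it was number 44 of the 11048 genes with CCF642 and number 54 with CCF642-34.

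The other receptors rose less. NBR1, a receptor built like SQSTM1 that also acts in the turnover of peroxisomes, was at 189 and 192 CPM in DMSO, 247 and 246 with CCF642, and 239 and 254 with CCF642-34. Both compounds stood above DMSO in every library, and the compounds overlapped with each other in deposited CPM but not on the TMM scale. NBR1 rose 1.41-fold with CCF642 (95% confidence interval 1.33 to 1.50) and 1.37-fold with CCF642-34 (1.29 to 1.46). OPTN, a receptor for damaged mitochondria and bacteria, was at 174 and 178 CPM in DMSO, 230.5 and 210.5 with CCF642, and 216 and 209 with CCF642-34. It rose 1.37-fold (1.29 to 1.46) and 1.28-fold (1.20 to 1.37). Among the 3 receptors, the log2 increase thus ranged from 0.46 to 2.41 with CCF642 and from 0.36 to 1.90 with CCF642-34.

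The ATG8-family genes differed among themselves. GABARAPL1 was at 40.1 and 40.6 CPM in DMSO, 163 and 149.8 with CCF642, and 136 and 129.5 with CCF642-34. The groups did not overlap, and the increase was 4.16-fold with CCF642 (95% confidence interval 3.85 to 4.50, adjusted p = 1.57e-33) and 3.44-fold with CCF642-34 (3.18 to 3.72, adjusted p = 1.02e-30). By size of increase GABARAPL1 was number 66 of all genes with either compound. MAP1LC3B, which encodes the LC3 protein widely used to mark autophagosomes, was at 64.1 and 68.5 CPM in DMSO, 130.4 and 128 with CCF642, and 131 and 138 with CCF642-34. All 4 compound libraries stood above DMSO, and the increase was 2.12-fold (1.97 to 2.29) and 2.15-fold (1.99 to 2.31). GABARAPL2, a close relative of GABARAPL1 that is also known for Golgi transport, was at 29.01 and 32.00 CPM in DMSO, 27.8 and 27.6 with CCF642, and 31.8 and 30.1 with CCF642-34. On the TMM scale its compound libraries overlapped with DMSO, and its fold change was 0.997 (0.887 to 1.12, adjusted p = 0.971) and 1.08 (0.958 to 1.21, adjusted p = 0.283).

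Levels of different genes were set side by side per length of the gene's exons, here the union of GENCODE 29 exons, on the deposited CPM. This union spans all annotated transcripts of a gene, and the annotation behind the counts is not given. The order and shares below therefore hold for this length only. In DMSO the order was SQSTM1 at 131 CPM per kb of exonic length, OPTN at 34.2, NBR1 at 22.7, WIPI1 at 13.7, MAP1LC3B at 12.5, GABARAPL2 at 10.1, GABARAPL1 at 9.88, ATG5 at 9.16, ULK1 at 9.13 and ATG12 at 7.16, as means of 2 libraries. From GABARAPL2 down to ULK1 neighbours in this order overlapped or nearly touched, since GABARAPL2 ranged from 9.56 to 10.5, GABARAPL1 from 9.83 to 9.93, ATG5 from 8.56 to 9.77 and ULK1 from 8.95 to 9.30 CPM per kb. With CCF642 GABARAPL1 stood at 38.2 CPM per kb, above NBR1 at 29.3 and below OPTN at 42.9. With CCF642-34 it stood at 32.5, again between NBR1 at 29.3 and OPTN at 41.4. GABARAP, the family's other listed gene and no member, was the most abundant ATG8-family transcript per length in every library, with 70.9 to 81.8 CPM per kb over the 6 libraries. Of the summed level per kb of the 4 ATG8-family genes, GABARAPL1 made up 9.31% and 9.04% in DMSO, 27.1% and 26.0% with CCF642, and 22.2% and 22.1% with CCF642-34. The sum itself was 105 and 109.7 CPM per kb in DMSO, 147 and 141 with CCF642, and 150.3 and 143 with CCF642-34.

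**Figure D2:**
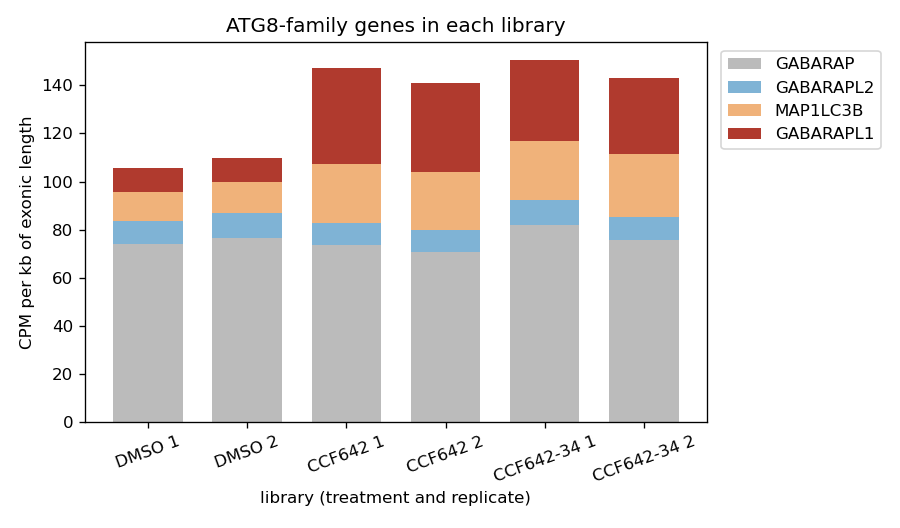
Stacked level of the 4 listed ATG8-family genes in each library, in CPM per kb of exonic length. The bars reach 105 and 109.7 in DMSO and between 141 and 150.3 with the compounds, with the GABARAPL1 and MAP1LC3B segments taller and those of GABARAP and GABARAPL2 much as in DMSO.

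WIPI1, the protein that binds the phosphoinositide on the forming membrane, was at 44.3 and 48.7 CPM in DMSO, 90.4 and 84.0 with CCF642, and 87.8 and 84.0 with CCF642-34. All compound libraries stood above DMSO. WIPI1 rose 2.03-fold with CCF642 (95% confidence interval 1.87 to 2.22) and 1.95-fold with CCF642-34 (1.78 to 2.12). ATG5, the partner of ATG12 in the conjugate, was at 55.2 and 48.4 CPM in DMSO, 59.7 and 63.9 with CCF642, and 61.7 and 69.2 with CCF642-34, and rose 1.30-fold (1.18 to 1.44) and 1.34-fold (1.21 to 1.47). In a linear model fitted to each gene alone, without variance shared across genes, the ATG5 calls were lost (adjusted p = 0.0739 and 0.0699).

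ATG12 was at 64.7 and 62.5 CPM in DMSO, 68.3 and 64.5 with CCF642, and 67.9 and 70.5 with CCF642-34. On the TMM scale it rose 1.14-fold with CCF642 (95% confidence interval 1.05 to 1.25, adjusted p = 0.00575) and 1.16-fold with CCF642-34 (1.06 to 1.26, adjusted p = 0.00344) by limma, but with library size alone neither call held (adjusted p = 0.386 and 0.0910), nor without DMSO replicate 2 (adjusted p = 0.0753 and 0.0572). In deposited CPM, the lower CCF642 library lay within the DMSO range. ULK1, the kinase that starts autophagy, was at 68.1 and 70.8 CPM in DMSO, 78.3 and 76.2 with CCF642, and 65.0 and 62.2 with CCF642-34. It rose 1.22-fold with CCF642 (1.12 to 1.32, adjusted p = 6.58e-05 by limma), and with CCF642-34 its fold change was 0.975 (0.896 to 1.06, adjusted p = 0.629). In deposited CPM ULK1 libraries lay above DMSO with CCF642 and below DMSO with CCF642-34.

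Set directly against each other at the same dose and time, 3 members were lower with CCF642-34 than with CCF642 and 7 were not called. In limma 0 were higher, also at an unadjusted p under 0.05, and 0 were with edgeR's quasi-likelihood test, DESeq2 or limma-voom. Over all genes, 15.9% were called higher and 17.5% lower in this comparison, and the libraries of the compounds did not overlap for 6 members and for 63.4% of all genes. SQSTM1 was 0.703-fold the CCF642 level (95% confidence interval 0.670 to 0.736, log2 difference -0.51 ± 0.034 SE, adjusted p = 4.30e-17). ULK1 was 0.801-fold (0.736 to 0.871, adjusted p = 4.01e-05), and GABARAPL1 0.826-fold (0.764 to 0.893, adjusted p = 0.000119), by the same limma test. In the linear model fitted to each gene alone, the SQSTM1 call held (adjusted p = 0.0282) and those of ULK1 and GABARAPL1 did not (adjusted p = 0.0514 and 0.0939).

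For the other 7 members no difference between the compounds was called, and the intervals bound its size. The fold of CCF642-34 over CCF642 lay between 0.937 and 1.09 for MAP1LC3B, between 0.876 and 1.04 for WIPI1, between 0.913 and 1.03 for NBR1, between 0.931 and 1.13 for ATG5 and between 0.927 and 1.10 for ATG12. For GABARAPL2 it lay between 0.960 and 1.21. OPTN had an interval of 0.877 to 0.999 and an adjusted p of 0.111, and without CCF642 replicate 2 it was called lower with CCF642-34 (log2 difference -0.16, adjusted p = 0.0108). The comparisons of each compound with DMSO share the DMSO libraries, so only this direct comparison speaks to a difference between the compounds.

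**Figure D3:**
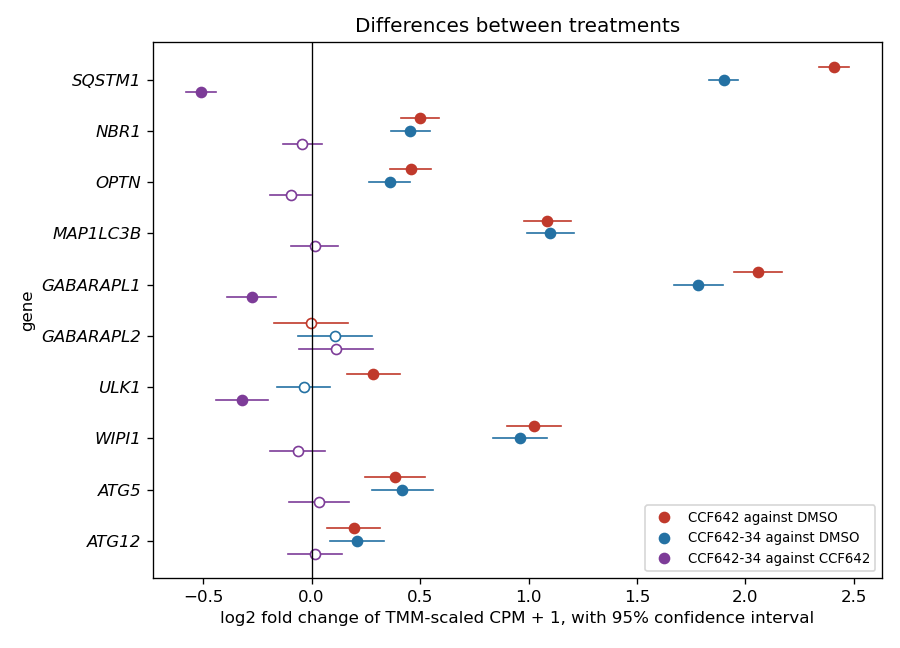
Log2 fold change of TMM-scaled CPM + 1 for the 10 genes in the 3 comparisons, as points with 95% confidence intervals, filled where the adjusted p is under 0.05 and open where it is not. SQSTM1, ULK1 and GABARAPL1 are the 3 genes with a filled point below 0 for CCF642-34 against CCF642, and SQSTM1 has the highest values against DMSO, 2.41 and 1.90.

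A list of 64 other autophagy genes, grouped by step, was examined beside the members, and 57 of them were listed. The list too was written with earlier results of these data known, so its shares do not test it as a set. Of these 57, 26 rose and 7 fell with CCF642, and 29 rose and 10 fell with CCF642-34 (45.6% and 12.3%, and 50.9% and 17.5%, beside 31.8% and 31.3%, and 29.7% and 27.9%, of all genes). The groups within the list hold 1 to 12 genes, too few to set against these shares. Over all 57 genes the median log2 fold change was 0.15 for either compound. With library size alone, the split was 16 higher and 18 lower with CCF642 and 21 higher and 12 lower with CCF642-34, so the balance of directions in this list depends on the scaling, which with CCF642 moved the all-gene median of the log2 fold changes from -0.0068 to -0.13. Between the compounds the 57 genes split into 8 higher and 10 lower with TMM (14% and 17.5%, beside 15.9% and 17.5% of all genes). With library size alone they split into 16 and 7. All genes with library size alone split into 2528 higher and 4738 lower with CCF642, where TMM gave 3514 and 3459. With CCF642-34 they split into 2497 and 3972, where TMM gave 3282 and 3080. Between the compounds all genes split into 2406 and 1488, where TMM gave 1758 and 1930. At least 2-fold higher were 4 of the 57 with CCF642 and 1 with CCF642-34, beside 4.5% and 2.59% of all genes. With library size alone these counts were 2 and 0, since NRBF2 and CALCOCO2 then stood at log2 values of 0.99 and 0.96 with CCF642, and the count with CCF642-34 was 2 without DMSO replicate 1 or without CCF642-34 replicate 1.

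Among initiation genes, 3 of 4 rose and 1 fell with each compound. ATG101, a subunit of the ULK1 complex, rose by a log2 fold change of 0.89 ± 0.073 SE with CCF642 and 0.70 ± 0.073 with CCF642-34, from 40.2 and 34.6 CPM in DMSO to 68.3 and 59.4 and to 58.7 and 56.5. ULK2, the paralogue of ULK1, had log2 fold changes of -0.71 ± 0.14 and -0.49 ± 0.14 and a low level, 12.5 and 10.6 CPM in DMSO, 5.49 and 6.64 with CCF642 and 6.50 and 8.42 with CCF642-34. Among lipid kinase genes, 5 of 7 rose with each compound and 1, PIK3R4, fell with CCF642-34 (log2 -0.26 ± 0.067). NRBF2, a regulatory subunit of that kinase, had the largest increase of its group, from 35.4 and 32.7 CPM to 67.6 and 69.5 with CCF642 and 54.8 and 58.0 with CCF642-34 (log2 1.12 ± 0.068 and 0.80 ± 0.068). In the direct comparison NRBF2 was lower with CCF642-34 (log2 -0.32 ± 0.068, limma adjusted p = 0.000224), a call lost in the gene-wise model (adjusted p = 0.0784).

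Of 10 genes of phagophore growth, 7 rose with each compound. ATG9B, a lipid scramblase, went from 1.04 and 0.748 CPM in DMSO to 3.45 and 3.41 with CCF642, while it was at 1.02 and 1.33 CPM with CCF642-34, and it differed between the compounds by a log2 value of -1.07 ± 0.21 (limma adjusted p = 7.98e-05). At so low a level the size of the change depends on the pseudocount: with CCF642 the log2 fold change was 1.31 ± 0.21, and 0.64 to 2.07 over the alternatives, lowest with a pseudocount of 4 and highest with DESeq2. Between the compounds it was -0.55 with a pseudocount of 4 and -1.59 with edgeR. WDR45, a relative of WIPI1, had the largest increase of the group with CCF642-34, log2 0.63 ± 0.058, with 64.9 and 66.8 CPM in DMSO and 99.2 and 93.4 with the compound. ATG2B, a lipid transfer protein, was called lower with CCF642-34 at a log2 value of -0.18 ± 0.077. Of 9 conjugation genes, 2 rose and 1 fell with CCF642, and 2 rose and 2 fell with CCF642-34. The ATG4 proteases, which trim ATG8 proteins, went both ways, with ATG4B at log2 0.30 ± 0.060 for CCF642, ATG4A at 0.40 ± 0.077 for CCF642-34, and ATG4C at -0.61 ± 0.11 and -0.48 ± 0.11. In the gene-wise model the CCF642-34 calls of ATG4A and ATG4C were lost (adjusted p = 0.0517 and 0.0604). GABARAP was not called with CCF642 and was called at a log2 value of 0.15 ± 0.048 with CCF642-34. That call was lost in 4 of 17 alternatives, among them library size alone and the gene-wise model (adjusted p = 0.262 and 0.132). Over all 17 the log2 value ranged from 0.063 to 0.21.

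Of 12 other receptors, 4 rose and 2 fell with CCF642, and 5 rose and 2 fell with CCF642-34. CALCOCO2, a receptor for bacteria and mitochondria, rose most in this group, from 73.0 and 65.6 CPM in DMSO to 133 and 139 with CCF642 and 124 and 132 with CCF642-34 (log2 1.10 ± 0.056 and 0.96 ± 0.056). FUNDC1, a receptor in the outer mitochondrial membrane, was called lower with both, at log2 -0.40 ± 0.16 and -0.41 ± 0.16. Of 6 receptors for the endoplasmic reticulum, 2 rose and 2 fell with CCF642, and 3 rose and 2 fell with CCF642-34. CCPG1 went from 30.1 and 29.4 CPM to 66.7 and 65.8 with CCF642 and 58.9 and 61.0 with CCF642-34 (log2 1.26 ± 0.068 and 1.07 ± 0.068), while ATL3 went from 120 and 115 CPM to 66.3 and 71.8 and to 75.8 and 76.3 (log2 -0.63 ± 0.058 and -0.53 ± 0.058). Of 8 fusion genes, 3 rose and 1 fell with each compound, with YKT6 at log2 0.51 ± 0.048 and 0.54 ± 0.048 and VAMP8 at -0.34 ± 0.074 and -0.17 ± 0.074. The lower calls of FUNDC1 (with CCF642 and with CCF642-34), ULK2, ATG2B and VAMP8 (with CCF642-34) were each lost when single libraries were left out, and the CCF642 calls of ULK2 and VAMP8 were lost in the gene-wise model (adjusted p = 0.0648 and 0.0898).

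**Figure D4:**
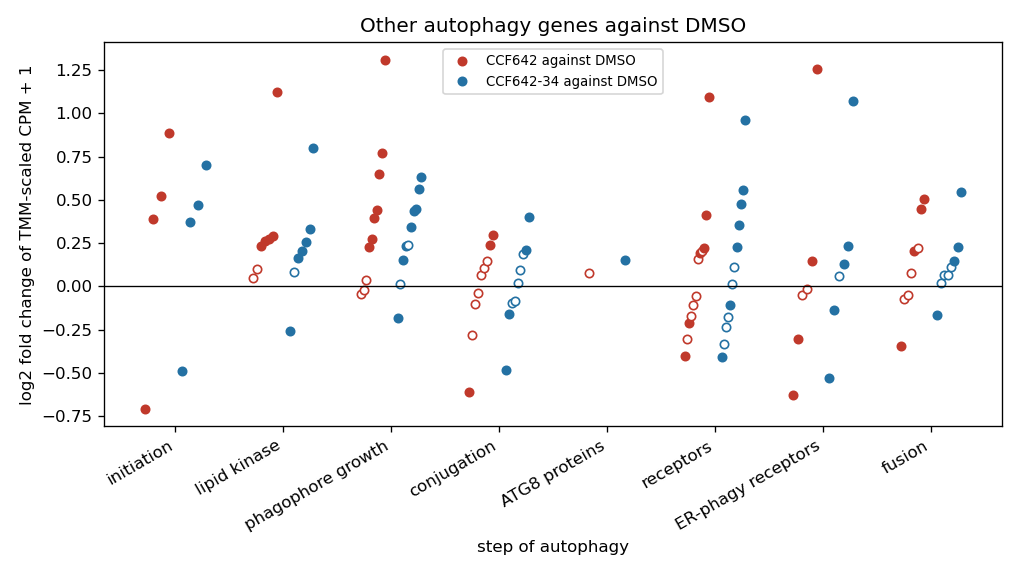
Log2 fold change against DMSO of the 57 other listed autophagy genes, by step, with CCF642 in red and CCF642-34 in blue, filled where the adjusted p is under 0.05. CCPG1, CALCOCO2, NRBF2 and ATG9B reach log2 values of 1.10 to 1.31 with CCF642, and ULK2, ATG4C and ATL3 lie lowest, at -0.71 to -0.61.

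Parts of the members' exons are shared with other genes in GENCODE 29, and the strand setting of the counting is not given in the sources used here. For WIPI1 (chr17:68420948-68457513, GRCh38), 24.3% of the exonic bases overlap ARSG on the opposite strand, which stood at 4.82 to 6.40 CPM in all libraries. For SQSTM1 (chr5:179806398-179838078), 20.7% overlap MRNIP, which was not among the listed genes, and 1.37% overlap MGAT4B, at 217 to 240.0 CPM. ATG12 (chr5:115828200-115841858) shares 4.25% with AP3S1, at 26.5 to 37.6 CPM. Of the 50-base words in MAP1LC3B transcripts, 4.82% also occur in MAP1LC3B2, a near-identical copy, and reads from such words could be counted for either gene. GABARAPL1 shares 8.05% of its exonic bases with the antisense gene AC115676.1. GABARAP, on which the ATG8-family shares also rest, overlaps AC120057.2 on the same strand over 30.5% of its exonic bases and AC120057.3 on the other strand over 25.2%. None of these 3 genes was among those listed. For GABARAPL1 the share of 50-base words found in other genes was 0.734%, all with the pseudogene GABARAPL3, and for no member but MAP1LC3B was it over 1.51%.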

How the data were processed

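MM1.S mRNA was enriched with oligo(dT) and sequenced in 6 libraries. The submitters' processing notes name hg19, STAR, edgeR 3.24.3 and limma 3.38.3, without their roles; the annotation is not given in the sources used here. The authors deposited CPM values for 11048 gene symbols, with no symbol under 1.50 CPM in all libraries; genes below were not analysed here. Whole reads were recovered from the CPM (100% of values whole within 0.1 reads). A deposited table that joins all libraries repeats these values and was left aside.

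Here CPM were scaled with TMM factors (edgeR 4.0.16) and log2(CPM + 1) was fitted with limma 3.58.1 (trend, R 4.3.3), 3 groups together, no block, with 3 residual and 42.9 prior degrees of freedom, and Benjamini-Hochberg adjustment over all genes. The scripts were tested on simulated data in which few genes changed, which does not probe the dependence on scaling. DESeq2 1.42.0 and edgeR's quasi-likelihood test on the recovered reads were among 17 alternatives. The members and lists were chosen with earlier results of these data known, and the motifs were chosen after the files were seen. Named genes are the 10 members and, within each step of the other list, the genes called with the largest increase and decrease against DMSO for each compound. RUBCN, MAP1LC3A, MAP1LC3B2, MAP1LC3C and RETREG1 to RETREG3 were not analysed here. One cell type marker is not reported here. Replicates of a group differed by more than counting noise (chi-square per gene 2.30, 4.64 and 4.04).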

Additional observations from a re-analysis of the deposited data

How the results depend on the processing

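The member values, the counts of both lists and the named genes of the other list were recomputed under 17 alternatives (ATG9B under 16 against DMSO, since its level is under the filter on low values, and 15 between the compounds, where DESeq2 gave no adjusted p); levels per length and motif matches were not. The calls of SQSTM1, NBR1, OPTN, MAP1LC3B, GABARAPL1, ULK1 (with CCF642) and WIPI1 against DMSO, and of SQSTM1 between the compounds, held in all of them. The members lower with CCF642-34 than with CCF642 numbered 3 to 4 when 1 library was left out and 1 in the gene-wise linear model. For the other autophagy genes, library size alone gave 16 higher and 18 lower with CCF642 and 16 higher between the compounds, where TMM gave 26, 7 and 8. The gene-wise model gave 3 lower with CCF642, 17 higher and 3 lower with CCF642-34, and 0 higher and 3 lower between the compounds. That model also called fewer of all genes: 45.4% with CCF642, 37.2% with CCF642-34 and 6.68% between the compounds. The main test called 63.1%, 57.6% and 33.4%. DESeq2 gave 5 lower with CCF642-34 and 5 higher between the compounds, where it called 51.1% and 25.7% of all genes. Leaving out 1 library gave 4 to 10 lower with CCF642-34 (4 without either DMSO library, 6 and 5 without CCF642-34 replicate 1 and 2), and between the compounds 4 to 9 higher (4 without CCF642-34 replicate 1) and 5 to 10 lower (5 without CCF642-34 replicate 2). Why these counts moved was not tested.

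Log2 fold changes that turned sign were of genes not called. Over the leave-one-out fits, GABARAPL2 with CCF642 ranged from -0.073 to 0.065, the highest without DMSO replicate 2. Between the compounds, MAP1LC3B ranged from -0.018 to 0.049, ATG5 from -0.040 to 0.11 and ATG12 from -0.021 to 0.051. NBR1 turned to 0.0015 with library size alone. Same-numbered libraries did not deviate together (r of -0.047, -0.077 and 0.11 over 9390 genes), so the numbers were not taken to pair them. With the number as a replicate block, 9 members rose with CCF642 and 8 with CCF642-34, and 3 were lower between the compounds. On the recovered reads, edgeR's quasi-likelihood test called 3498 genes higher and 3434 lower with CCF642, 3324 and 3116 with CCF642-34, and 1764 and 1960 between the compounds.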
